A study of Mus musculus with 6 samples.

Results

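The 100 best-measured small nucleolar RNA (snoRNA) genes of the embryonic mouse ovary are described here, out of 1507 genes with the snoRNA biotype among the 54532 genes of the deposited table. They were chosen by their measured reads, as the snoRNA genes with the highest mean of FPKM (reads divided by gene length and library size) multiplied by gene length over all 6 libraries, so their high read numbers are a description and not a result. RNA of whole ovaries of C57BL/6 mice at 16.5 days post coitum (dpc) was sequenced in 3 control (Ctrl) libraries, which the labels call wild type, and in 3 *Srsf1* conditional knockout (cKO) libraries. The cKO mice carry *Stra8-GFPCre*, a transgene that makes Cre under the promoter of *Stra8*, a gene of germ cells entering meiosis, and *Srsf1* Fl/Fl alleles, from which Cre removes exons 2, 3 and 4 in germ cells. *Srsf1* codes for a splicing factor, and the comparison asked which RNAs change in the ovary when germ cells lose it. Whole ovaries also hold somatic cells, and in bulk RNA fewer cells of a type and less RNA per cell cannot be told apart. The paper calls the 3 libraries of a group biological replicates. The labels do not say whether they came from separate animals, so the p-values measure the spread between these libraries only.

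snoRNAs are short RNAs that guide chemical changes on ribosomal RNA. Those with C and D boxes guide ribose methylation by fibrillarin, and those with H and ACA boxes guide the conversion of uridine to pseudouridine by dyskerin. Most mammalian snoRNAs lie in introns of other genes, the host genes, and are released when the spliced intron is opened and trimmed from both ends down to the snoRNA bound by its proteins. A mature snoRNA has no poly(A) tail, whereas these libraries were made from RNA selected with poly-T beads, and few reads fell on snoRNA genes. Reads counted on an intronic snoRNA gene may come from the snoRNA or from unspliced RNA of its host. The values given here cannot tell these apart, so they are levels of reads on the snoRNA genes.

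The whole-number reads behind each value could be worked out, since 100% of the FPKM values were whole reads within 0.05 of a read. Between 14212164 and 16784241 reads per library fell on genes, and between 968 and 1300 of these on snoRNA genes. The library size behind FPKM was not the number of reads on genes. It was 14997043 against 15548757 in Ctrl replicate 1 and 17469501 against 16756795 in Ctrl replicate 3. The order of libraries can therefore differ between FPKM and reads scaled by the reads on genes. *Srsf1* was at 80.2, 70.1 and 63.1 FPKM in Ctrl and at 32.4, 37.0 and 36.4 FPKM in cKO. The log2 fold change was -0.99 ± 0.13 (SE), with an unadjusted p of 0.000158 and an adjusted p of 0.497 (limma). It was lower in every cKO library. The summed FPKM of 6 germ cell markers was 106, 233 and 425 in Ctrl and 471, 173 and 570 in cKO, that of 6 red blood cell genes lay between 4794 and 22480 in Ctrl and between 1699 and 10311 in cKO, and that of 6 retina markers stayed at or below 0.525. The library protocol in the labels names retina, and the retina markers were thus near 0 where the germ cell markers were not.

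The sequences below are those on which the results turn, from the GENCODE M21 transcripts of GRCm38, 5′ to 3′. They are the 2 most-read C/D snoRNAs and the most-read H/ACA snoRNA, a near-identical H/ACA pair from 1 host gene, a C/D snoRNA read in 2 libraries only, and the 4 genes that passed the unadjusted limit between cKO and Ctrl. Capitals mark a C box (TGATGA) that lies wholly within the first 15 bases and a D box (CTGA) within the last 15 bases, or an ACA that stands 2 to 4 bases before the 3′ end.
Snord104: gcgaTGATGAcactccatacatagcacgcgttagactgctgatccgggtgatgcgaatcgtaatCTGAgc
Snord89: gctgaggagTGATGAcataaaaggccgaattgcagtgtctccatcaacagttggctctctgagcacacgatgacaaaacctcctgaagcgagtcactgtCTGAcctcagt
Snora31: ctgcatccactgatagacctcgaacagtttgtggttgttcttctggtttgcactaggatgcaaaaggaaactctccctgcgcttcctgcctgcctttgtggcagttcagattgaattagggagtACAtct
Gm22270: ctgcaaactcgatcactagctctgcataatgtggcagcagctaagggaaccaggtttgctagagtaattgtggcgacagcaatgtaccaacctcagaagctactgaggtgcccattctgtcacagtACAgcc
Gm26387: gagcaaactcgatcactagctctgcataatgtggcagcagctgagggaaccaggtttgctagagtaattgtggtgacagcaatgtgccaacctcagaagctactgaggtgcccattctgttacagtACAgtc
Gm24598: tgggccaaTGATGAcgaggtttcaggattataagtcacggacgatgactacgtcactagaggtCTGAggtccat
Gm25117: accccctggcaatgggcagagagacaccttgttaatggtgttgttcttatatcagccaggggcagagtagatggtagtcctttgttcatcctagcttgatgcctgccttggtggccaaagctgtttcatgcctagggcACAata
Gm23722: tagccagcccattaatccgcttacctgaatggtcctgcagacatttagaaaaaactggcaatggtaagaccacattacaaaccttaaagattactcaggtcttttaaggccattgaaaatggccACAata
Gm24884: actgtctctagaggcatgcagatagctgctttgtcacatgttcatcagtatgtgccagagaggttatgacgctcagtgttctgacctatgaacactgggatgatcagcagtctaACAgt
Gm22661: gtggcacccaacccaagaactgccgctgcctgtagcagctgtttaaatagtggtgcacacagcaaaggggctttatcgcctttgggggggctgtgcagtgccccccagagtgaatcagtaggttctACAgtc

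In GRCm38, *Snord104* lies at chr11:106500993-106501062 on the plus strand, in no host gene. *Snord89* lies at chr1:39548745-39548854 on the minus strand in an intron of the lncRNA gene *Gm15832*. *Snora31* lies at chr14:75847905-75848034 on the plus strand in an intron of *Tpt1*, the gene of translationally controlled tumour protein. *Gm22270*, at chr5:107905177-107905308, and *Gm26387*, at chr5:107907345-107907476, lie on the plus strand in introns of the ribosomal protein gene *Rpl5* and are 96.9% identical. *Gm24598* lies at chrX:64496584-64496657 on the plus strand in no host gene. *Gm25117* lies at chr10:111481493-111481636 on the plus strand in an intron of *Nap1l1*, which codes for a nucleosome assembly protein. *Gm23722* lies at chr1:39573746-39573875 on the minus strand in an intron of *Rnf149*. *Gm24884*, at chr4:83078511-83078629, lies on the plus strand in no host gene, and *Gm22661*, at chr13:95332618-95332749, lies on the plus strand in an intron of *Zbed3*.

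By the description in the table or by these boxes, 38 of the 100 genes were C/D snoRNAs, 42 were H/ACA snoRNAs and 20 could not be assigned. The C/D genes had a median length of 78.5 bases, between 64 and 238, and the H/ACA genes a median of 133 bases, between 115 and 246. A C box and a D box in these windows stood together in 27% of the 100 genes and in 19.0% of the 1407 other snoRNA genes, and an ACA at the 3′ end stood in 45% and 43.4%. Both box types were thus present in the best-measured genes and in the other snoRNA genes, as a match of letters only. All 100 genes matched the annotation by identifier, position and strand. They lay on 20 chromosomes, and 95 of them were shorter than the 150 bases of 1 sequencing read.

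By the annotated type of the host gene, 72 of the 100 genes lay within a protein-coding gene and 11 within a lncRNA gene. *Cct6a* was classed as lncRNA by this type alone. The other 17 lay in no gene of the same strand. These 83 genes had 68 hosts, of which 12 held more than 1 of them. Ribosomal protein genes hosted 21. *Rpl17* hosted *Gm23301*, *Snord58b* and *Gm26202*, and the lncRNA gene *Rian* of the imprinted *Dlk1*-*Meg3* region hosted *DQ267102*, *Gm25357* and *Gm24564*. Genes in 1 host share its transcript and are not independent of each other. Only 4 of the 100 genes overlapped an annotated exon of the same strand, and 79 lay in a host outside every such exon.

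The place in the genome, which the choice of members did not use, was compared with that of the 1199 snoRNA genes at 0 reads in every library. A host gene was present for 83% of the best-measured genes, for 45.2% of the 208 other snoRNA genes with reads and for 40.7% of the genes at 0. The median host level was 28.4, 13.9 and 0.808 FPKM in the same order, where the last value is that of *Snhg14* alone, a lncRNA gene that holds 208 snoRNA genes, of which 1 had a read. Overlap with an exon of the same strand was found for 4%, 1.92% and 12.5%. These shares are descriptions, since snoRNA genes of a host or of a repeated family are not independent.

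Among snoRNA genes within a host and outside its exons, the share with at least 1 read was larger the higher the level of the host. It was 2.89% of 277 genes in hosts under 1 FPKM, 56% of 75 genes in hosts between 1 and 10 FPKM, 76.3% of 118 genes between 10 and 100 FPKM, and 85.3% of 34 genes in hosts of 100 FPKM or more. In the lowest class 206 of the 277 genes lay in *Snhg14*, and without this host, a choice made after the data were seen, 7 of 71 genes (9.86%) had reads. The best-measured genes made up 0%, 13.3%, 39.0% and 67.6% of these classes. In no host, 15.6% of 842 genes had reads.

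Within hosts of at least 10 FPKM, reads went with the place and the uniqueness of the snoRNA gene. Outside exons, 86.8% of 114 genes without a near-identical copy had reads, against 52.6% of 38 genes with such a copy, which is another snoRNA gene of at least 95% identity over at least 90% of the length. In an annotated exon of the same strand, 8 of 114 genes (7.02%) had reads. All 10 snoRNA genes in *Gas5*, a lncRNA gene known as a host of C/D snoRNAs, lay in annotated exons and were at 0 reads, while *Gas5* itself was at 32.3 FPKM. The same held for all 8 in *Snhg1* at 15.7 FPKM and all 3 in *Rack1* at 255 FPKM. In *Rian*, the 9 in exons were at 0 and the 4 outside exons had reads, 142 together. Counting tools commonly leave out reads that overlap 2 genes or match 2 places equally well. The sources do not say whether this was done here, and its part in these zeros was not tested.

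Some of the best-known snoRNAs were not among the 100 genes. The 10 U3 genes, needed for the first cleavages of pre-ribosomal RNA, were at 0 reads in all libraries, and each had a near-identical copy. The U8 gene, the 4 U14 genes, the 2 U17 genes and the 17 *Snord116* genes in *Snhg14* were also at 0. U13 was read, as *Snord13*, with 2, 7 and 7 reads in Ctrl and 4, 3 and 2 reads in cKO. A value of 0 in these libraries does not show that such an RNA was absent.

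**Figure D1:**
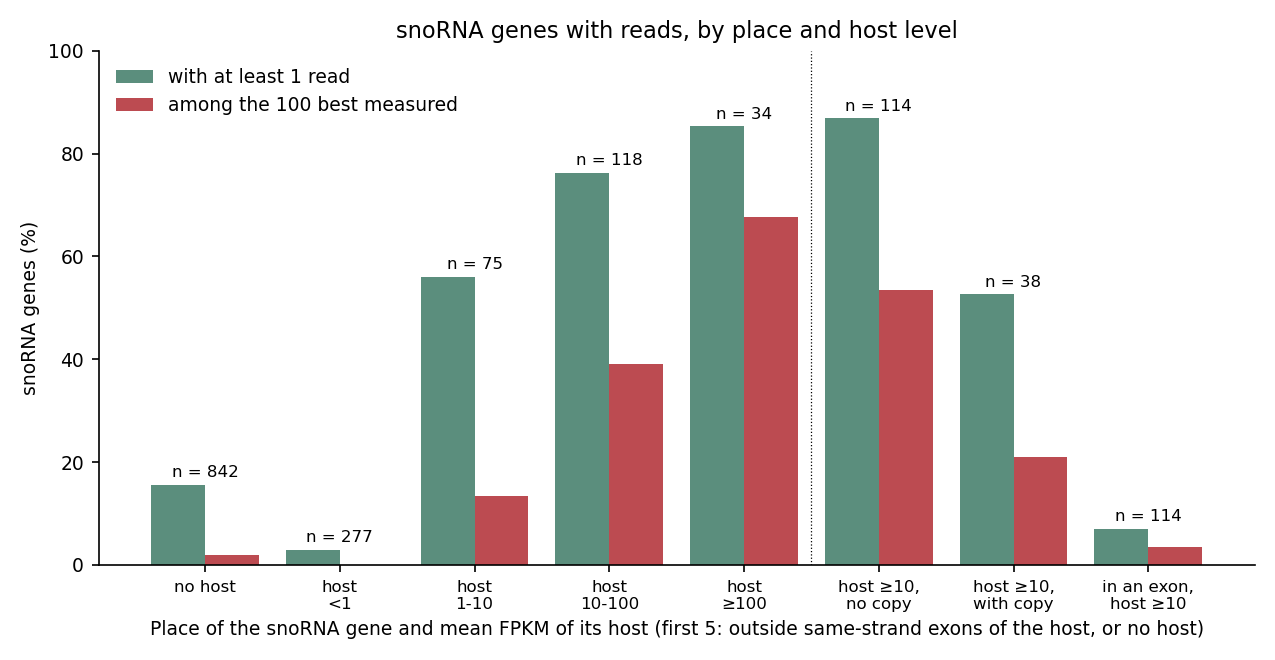
Share of snoRNA genes (percent, vertical axis) with at least 1 read in any library and share among the 100 best-measured genes, by place and by the mean FPKM of the host gene, with the number of snoRNA genes above each pair of bars. Left of the dotted line the share with reads goes from 2.89% in hosts under 1 FPKM to 85.3% in hosts of 100 FPKM or more, where 206 of the 277 genes of the lowest class lie in *Snhg14* and 9.86% of the rest had reads, and on the right it is 86.8% without a near-identical copy, 52.6% with one and 7.02% in an exon.

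Across 83 members with a host, reads and host level went together only loosely, with Pearson's r of 0.31 and Spearman's rho of 0.33 between log2 mean reads and log2 mean FPKM of the host. This is a description across genes of the same libraries, several of which share a host. The choice of members by their reads also cuts off low read numbers, so these values hold for the members only. Over all snoRNA genes in a host and outside its exons, the median reads of all libraries together were 0, 1, 7.5 and 43 from the lowest to the highest host class. The host of *Snora31* was at 909 FPKM and that of *Snord89*, with more reads, at 3.62 FPKM.

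The 100 genes took 6006 of the 6933 snoRNA reads (86.6%), and the first 10 took 28.5%. Their mean reads per library ran from 3.17 to 52.2 with a median of 6.17. A mean of at least 10 reads was reached by 31 genes, 35 had under 5, and 16 were at 0 in at least 1 library. All 100 passed the minimum of 0.5 mean FPKM for the test.

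*Snord104* had the highest mean, with 53, 64 and 36 reads in Ctrl and 71, 69 and 20 in cKO. *Snord89* followed with 45, 43 and 43 reads in Ctrl and 63, 44 and 67 in cKO. For *Snord104* the third cKO library was the lowest of the 6, while for *Snord89* the same library was the highest, and the groups overlapped for both in RPM, the reads per 1000000 reads on genes. *Snora31* had 38, 28 and 62 reads in Ctrl and 28, 38 and 30 in cKO. *Gm22478*, a gene with none of the boxes and no host, had 17, 28 and 54 reads in Ctrl and 42, 21 and 30 in cKO. *Snord72*, in an intron of *Rpl37*, had 36, 25 and 41 reads in Ctrl and 15, 30 and 30 in cKO. In all 3 genes the third Ctrl library was the highest and the groups overlapped.

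*Snora17* had 20, 34 and 25 reads in Ctrl and 28, 27 and 35 in cKO. *Snora57* had 31, 30 and 24 reads in Ctrl and 24, 44 and 13 in cKO. *Gm25777*, in an intron of *Ranbp1*, whose protein binds the Ran GTPase of nuclear transport, had 23, 21 and 24 reads in Ctrl and 19, 41 and 25 in cKO. All 3 are H/ACA genes, and the groups overlapped for each. *Gm22270* had 17, 32 and 28 reads in Ctrl and 20, 31 and 14 in cKO, and its near-identical neighbour *Gm26387* had 15, 9 and 12 in Ctrl and 6, 7 and 24 in cKO. Of the 6 libraries, the third cKO library was thus the lowest for one of the *Rpl5* pair and the highest for the other. *Gm25835*, a C/D gene in an intron of the translation factor gene *Eif4a1*, had 12, 22 and 30 reads in Ctrl and 24, 18 and 31 in cKO.

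**Figure D2:**
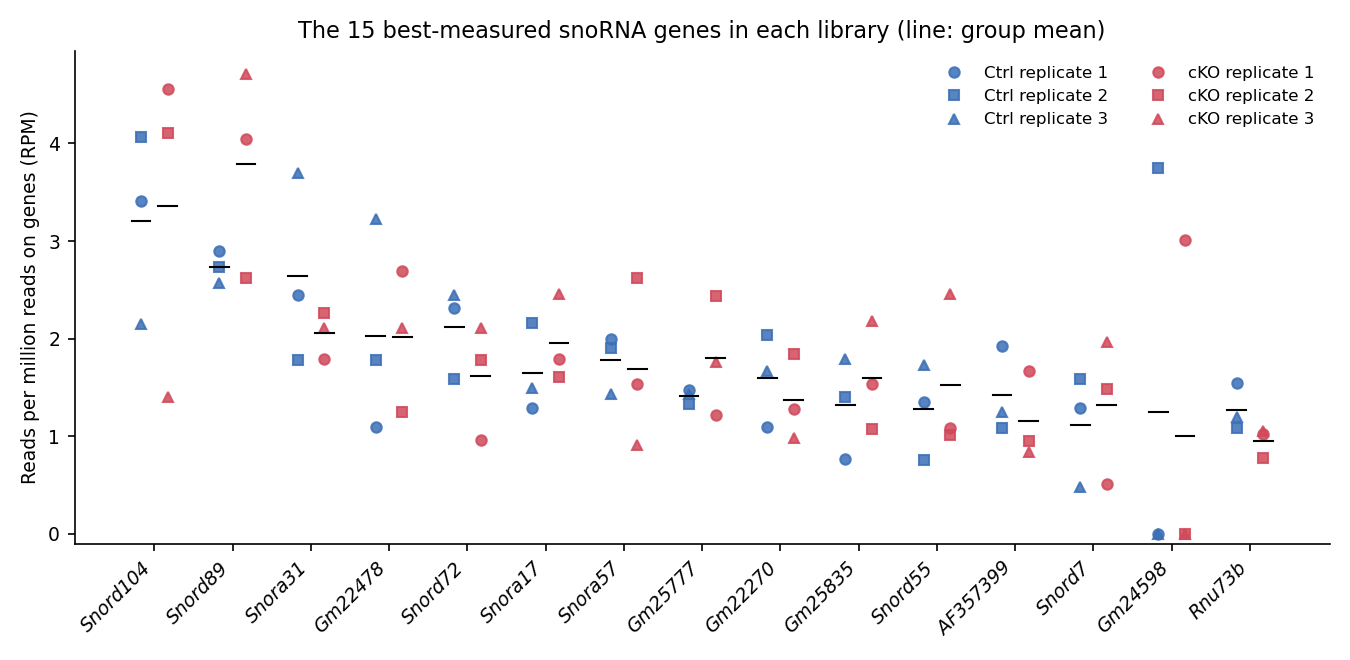
RPM (vertical axis) of the 15 best-measured snoRNA genes in each of the 6 libraries, with a line at each group mean. Ctrl and cKO points overlap for 14 of them, *Gm24598* was read in 1 library of each group, and for *Rnu73b* the cKO points lie just below the Ctrl points.

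For most of the 100 genes, libraries of a group differed by more than counting error gives on average. A spread index was computed for each gene, the chi-square of its reads around the group means divided by the 4 degrees of freedom, which is 1 on average for counting error alone. Its median was 2.49 over the 100 genes, 16 were below 1 and 10 were above 5. Over 3457 protein-coding genes with mean reads in the same range the median was 3.02, above the median of the snoRNA genes.

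One C/D gene stood far outside. *Gm24598* had 0, 59 and 0 reads in Ctrl and 47, 0 and 0 in cKO, a spread index of 53.7. It was thus read in the second Ctrl library and the first cKO library and was at 0 in the other 4, and its log2 fold change of -0.09 had a 95% interval from -4.84 to 4.67. It is 98.6% identical to *Gm24895*, a snoRNA gene of *Rian* on chromosome 12 that was at 0 reads in all 6 libraries. Between these copies the reads cannot be assigned with certainty.

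The other widest ranges were those of genes with few reads. The highest library over the lowest, in RPM with 0.5 read added, was 127 for *Gm24598*, 31.8 for *Gm24884*, 28.7 for *Gm26397*, 25.5 for *Gm23722* and 24.8 for *Snora43*. *Gm26397*, in an intron of *Tomm20*, which codes for an import receptor of mitochondria, had 0, 7 and 12 reads in Ctrl and 13, 15 and 7 in cKO. *Snora43* had 11, 0 and 0 reads in Ctrl and 1, 3 and 10 in cKO. Their 0 values fell in Ctrl libraries and the groups overlapped.

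cKO and Ctrl were compared on log2(FPKM + 1) with limma, two-sided, over the 17180 genes of the table with a mean of at least 0.5 FPKM. The limit for a call was an unadjusted p below 0.05. On this scale the change of genes with low values is understated. Of the 100 snoRNA genes, 4 were higher in cKO and 0 were lower, and none passed a Benjamini-Hochberg adjusted p below 0.05 (smallest adjusted p = 0.978). With voom on the recovered reads 3 were higher, 0 were lower and 0 passed the adjusted limit. In the voom fit 4.03% of all genes passed the unadjusted limit. Over all genes tested in the main fit, 2.68% were higher, 1.75% were lower, 4.43% passed in either direction and 0% passed the adjusted limit. The 4% of the snoRNA genes was thus near the background. The split over all genes was 460 higher and 301 lower, and with median-ratio scaling it was 563 and 233, while the snoRNA genes stayed at 4 and 0. Without Ctrl replicate 2 there were 7 higher and 1 lower, where 2.12% of all genes passed. Without cKO replicate 1 there were 4 higher and 4 lower (2.58% of all genes), without cKO replicate 2 there were 8 and 1 (14.5%), and without cKO replicate 3 there were 4 and 3 (2.51%). There were 4 higher and 2 lower without Ctrl replicate 1 (3.66% of all genes), and 4 and 0 without Ctrl replicate 3 (6.87%). The share of the snoRNA genes was thus below that of all genes without Ctrl replicate 3 and without cKO replicate 2. It was above that of all genes in the other fits with 1 library left out.

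The 4 genes were all H/ACA snoRNAs with under 10 mean reads. *Gm25117* had 0, 0 and 3 reads in Ctrl and 8, 4 and 4 in cKO. The log2 fold change was 1.35 ± 0.37 (SE) with an unadjusted p of 0.00847 and an adjusted p of 0.978 (limma). All its cKO libraries were above all Ctrl libraries. *Gm23722* had 1, 0 and 3 reads in Ctrl and 11, 3 and 11 in cKO. This gave a log2 fold change of 1.64 ± 0.48 (unadjusted p = 0.0121, adjusted p = 0.978, limma). The second cKO library had as many reads as the third Ctrl library and was above it only through the library size behind FPKM. By reads on genes it was slightly the larger library (16784241 against 16756795), so in RPM the groups overlapped. *Gm24884* had 0, 1 and 0 reads in Ctrl and 9, 1 and 13 in cKO. The fitted log2 fold change was 1.89 ± 0.62 (unadjusted p = 0.0197, adjusted p = 0.978, limma). Its second cKO library lay at the level of the Ctrl libraries.

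*Gm22661* had 1, 5 and 3 reads in Ctrl and 6, 7 and 4 in cKO. Its log2 fold change was 0.72 ± 0.30 (unadjusted p = 0.048, adjusted p = 0.978, limma). It overlapped between the groups and is 95.3% identical to *Snora68*. *Gm25117* and *Gm23722* passed the unadjusted limit in 18 of the 19 fits, the main one included, *Gm24884* in 14 and *Gm22661* in 8. Of the 6 fits with 1 library left out, *Gm24884* passed in 2 and *Gm22661* in 1.

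These 4 genes were among the 100 through their reads in cKO. Their mean reads in Ctrl were 1 for *Gm25117*, 1.33 for *Gm23722*, 0.333 for *Gm24884* and 3 for *Gm22661*, all below the 3.17 mean reads of the last gene chosen. A gene that enters in this way has to be higher in cKO, so the direction of the 4 calls gives no support for a rise of snoRNAs.

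The FPKM values of the groups did not overlap for 2 of the 100 genes, *Gm25117* and *Gm23722*, against 8.68% of all genes tested. In RPM the groups of *Gm23722* overlapped. *Rnu73b*, a C/D gene in an intron of *Rps3a1*, had 24, 17 and 20 reads in Ctrl and 16, 13 and 15 in cKO. Its reads, also as RPM, did not overlap between the groups, while its FPKM values did, and its log2 fold change was -0.37 ± 0.20 with an unadjusted p of 0.102 (limma).

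The log2 fold changes of the 100 genes had a median of 0.08 and quartiles of -0.24 and 0.39, beside -0.01, -0.14 and 0.13 for all genes tested. Above 0 were 54 genes and below 0 were 46. The median was -0.01 over the C/D genes, 0.17 over the H/ACA genes and 0.10 over the unassigned ones. Over the 31 genes with a mean of at least 10 reads it was -0.10, and over the 69 genes below it was 0.20. The sign of the median thus went with the depth of the genes, and the difference between these parts was not tested.

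The precision of single genes was low. The median SE was 0.44 on the log2 scale for the 100 genes and 0.18 for all genes tested. The 95% interval of the 100 genes reached a median of 1.04 to either side, which is 2.05-fold in FPKM + 1. For genes with low values this understates the fold of FPKM itself. The interval lay within a 2-fold change of FPKM + 1 either way for 24 of the 100 genes, 7 of which are among the 10 best measured. *Snord89* had a log2 fold change of 0.44 with an interval from -0.09 to 0.97 (unadjusted p = 0.0883, limma). Without cKO replicate 2 it was 0.68 with an interval from 0.36 to 1.00 (unadjusted p = 0.00247, limma), and with voom on the recovered reads the unadjusted p was 0.23. *Snord8*, in an intron of the chromatin remodeller gene *Chd8*, had 3, 9 and 14 reads in Ctrl and 26, 5 and 28 in cKO, and its interval ran from -0.62 to 2.63.

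**Figure D3:**
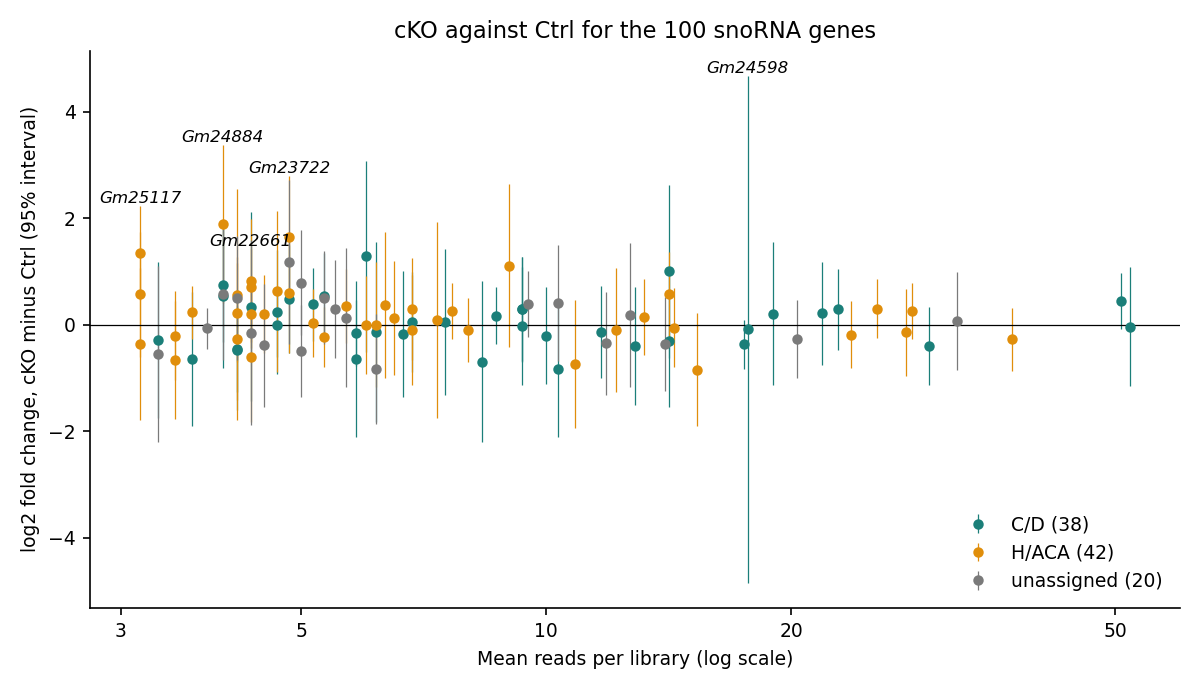
Log2 fold change, cKO minus Ctrl, with its 95% interval (vertical axis) against mean reads per library (horizontal axis, log scale) for the 100 snoRNA genes, in colours by box class. The 4 named H/ACA genes above 0 have under 10 mean reads, and *Gm24598* has the widest interval, from -4.84 to 4.67.

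In sums, the 100 genes took 55.6, 66.7 and 62.7 RPM in Ctrl and 70.5, 59.4 and 66.5 in cKO. The means were 61.7 ± 5.61 (SD, n = 3) and 65.5 ± 5.62 (SD, n = 3), so the groups overlapped and differed by less than the SD. The C/D genes took between 25.5 and 31.6 in Ctrl and between 23.4 and 32.7 in cKO. The H/ACA genes took 21.6, 22.9 and 24.9 in Ctrl and 25.0, 25.1 and 25.8 in cKO, where every cKO value was above every Ctrl value by a narrow margin. Without the 4 genes that passed the unadjusted limit, a choice made after the data were seen, the other 38 H/ACA genes took 21.5, 22.5 and 24.4 in Ctrl and 22.8, 24.2 and 23.5 in cKO, and the groups overlapped. No test was made of these sums, since the members were chosen on the same reads.

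Other small RNA classes also differed between the same libraries, though not all in the same order. The genes of small nuclear RNAs (snRNAs), which form the spliceosome, took 26.1, 34.8 and 36.6 RPM in Ctrl and 40.5, 22.5 and 37.3 in cKO. The first Ctrl and the second cKO library were lowest in both the snRNA genes and the 100 snoRNA genes, and the first cKO library was highest in both. The first Ctrl library also had the highest summed FPKM of the red blood cell genes (22480) and the first cKO library the lowest (1699). Not all genes of that list followed the sum. In the first cKO library *Hba-a1*, *Hba-a2*, *Hbb-bs* and *Hbb-bt* were lowest, while *Hbb-y* (99.6 FPKM) and *Hba-x* (19.1 FPKM) were highest. The 6 germ cell markers, given above, were lowest in the first Ctrl (106) and the second cKO library (173). These 2 libraries were also lowest in the snRNA genes and in the 100 snoRNA genes. The second cKO library was second highest in the summed FPKM of the red blood cell genes (10311). The part of cell makeup in these sums was not tested. Genes of small Cajal body RNAs (scaRNAs), which guide the same changes on snRNAs, took 3.09, 5.28 and 3.94 RPM in Ctrl and 4.49, 4.35 and 6.05 in cKO. The first and the third Ctrl library were the lowest in them.

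**Figure D4:**
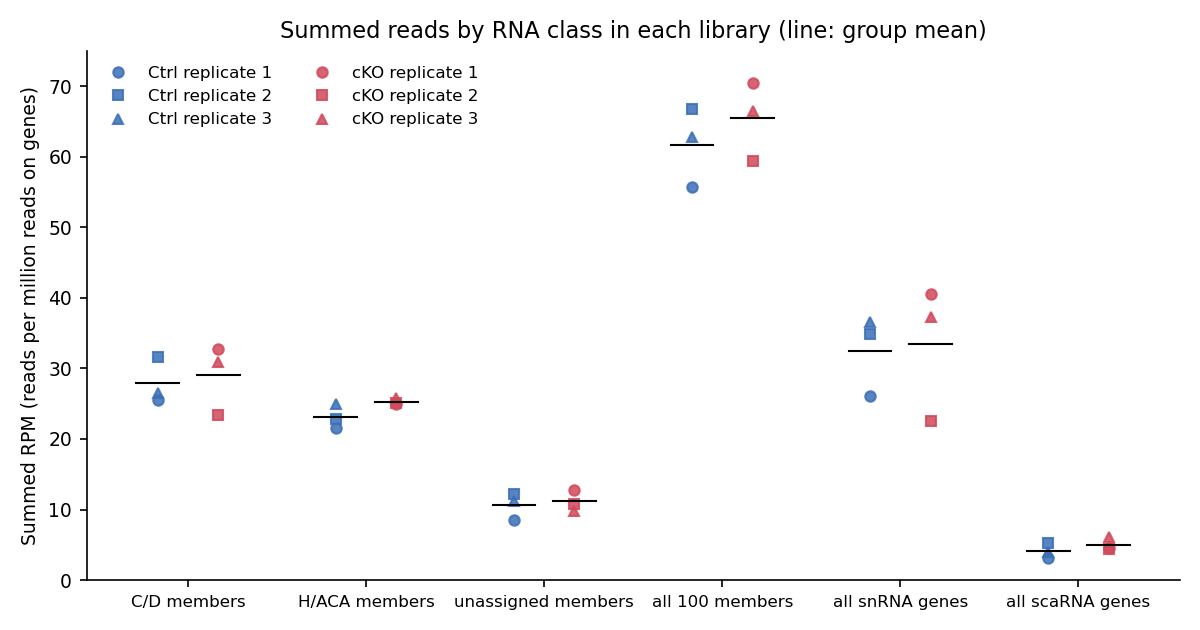
Summed RPM (vertical axis) of the 3 box classes, of all 100 best-measured snoRNA genes, and of all snRNA and scaRNA genes in each library, with a line at each group mean. The 100 genes lie between 55.6 and 66.7 in Ctrl and between 59.4 and 70.5 in cKO, and Ctrl replicate 1 and cKO replicate 2 are lowest in them and in the snRNA genes.

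Of the 68 host genes, 2 were lower in cKO, 0 were higher and none passed the adjusted limit (limma), or 2.94% at the unadjusted limit against 4.43% of all genes. Their median log2 fold change was -0.01. *Odc1*, the first enzyme of polyamine synthesis, was at 149, 108 and 109 FPKM in Ctrl and 83.6, 83.1 and 89.5 FPKM in cKO. The log2 fold change was -0.50 ± 0.16 (unadjusted p = 0.0168, adjusted p = 0.978, limma). All cKO libraries were below all Ctrl libraries, while the snoRNA gene in its intron, *Gm22748*, had 7, 10 and 8 reads in Ctrl and 10, 9 and 4 in cKO. *Shcbp1l* was at 1.26, 4.41 and 5.88 FPKM in Ctrl and 1.31, 0.482 and 1.61 FPKM in cKO (log2 fold change -1.08 ± 0.44, unadjusted p = 0.0439, adjusted p = 0.978, limma), and its *Gm25588* had 2, 4 and 6 reads in Ctrl and 4, 7 and 3 in cKO. The groups overlapped for both snoRNA genes. The count of hosts was 1 without cKO replicate 1, where 2.58% of all genes passed, and 6 without cKO replicate 2, where 14.5% did.

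Of the genes that passed the limit, 3 have a host, and none of these hosts passed it. The log2 fold change was -0.03 for *Nap1l1* beside 1.35 for *Gm25117*, 0.16 for *Rnf149* beside 1.64 for *Gm23722* and 0.04 for *Zbed3* beside 0.72 for *Gm22661*. The other snoRNA gene in *Zbed3*, *Snora47*, had 2, 4 and 6 reads in Ctrl and 4, 1 and 4 in cKO. Over the 83 genes with a host, 51 had the sign of their host, with Pearson's r of 0.10 and Spearman's rho of 0.16 between the log2 fold changes. This is a description across genes of the same libraries, and with the SE given above for the snoRNA genes it cannot show whether snoRNA and host moved together. Reads on an intronic snoRNA gene were also not separated from reads of unspliced host RNA.

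**Figure D5:**
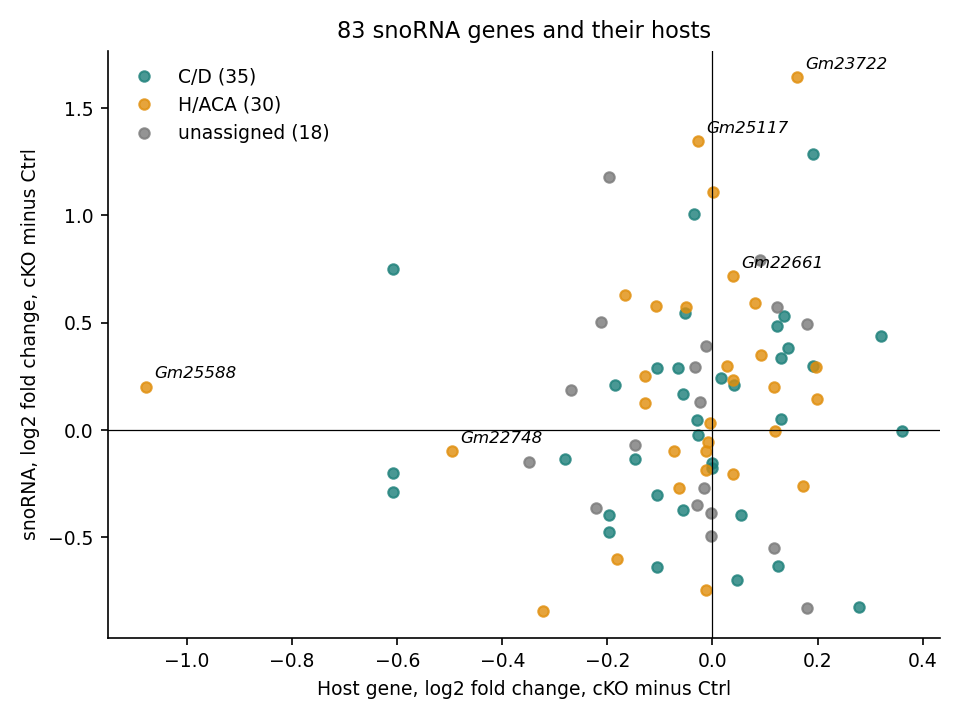
Log2 fold change, cKO minus Ctrl, of 83 snoRNA genes (vertical axis) against that of their host genes (horizontal axis), in colours by box class. The snoRNA genes spread more widely than the hosts, and the hosts of *Gm25588* and *Gm22748* are lower while these snoRNA genes lie at 0.20 and -0.10.

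Proteins bind snoRNAs as their core partners, assemble them into particles and trim them. Of 39 such genes tested, 2 were higher in cKO and 1 was lower at the unadjusted limit, and none passed the adjusted limit (limma), or 7.69% against 4.43% of all genes. The count was 1 without Ctrl replicate 1, 0 without Ctrl replicate 2, 1 without Ctrl replicate 3, 1 without cKO replicate 1, 7 without cKO replicate 2 and 0 without cKO replicate 3. In the same order 3.66%, 2.12%, 6.87%, 2.58%, 14.5% and 2.51% of all genes passed.

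Of the 4 core H/ACA proteins, *Dkc1*, the pseudouridine synthase dyskerin, was at 15.5, 17.7 and 16.6 FPKM in Ctrl and 14.7, 12.6 and 11.4 FPKM in cKO. This gave a log2 fold change of -0.35 ± 0.13 (unadjusted p = 0.034, adjusted p = 0.978, limma). All cKO libraries were below all Ctrl libraries. *Nhp2*, *Gar1* and *Nop10* had log2 fold changes of -0.39, -0.11 and 0.03 and did not pass. Of the 4 core C/D proteins, none passed. *Fbl*, the methyltransferase fibrillarin, had a log2 fold change of 0.15, *Nop56* of -0.07, *Nop58* of 0.14 and *Snu13* of 0.36.

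Among 13 assembly genes, *Naf1*, an H/ACA assembly factor, was at 11.0, 8.58 and 11.2 FPKM in Ctrl and 17.3, 11.0 and 19.0 FPKM in cKO. The fitted log2 fold change was 0.55 ± 0.22 (unadjusted p = 0.0422, adjusted p = 0.978, limma). Its second cKO library lay within the Ctrl range. Among 18 processing and decay genes, *Xrn2*, which trims RNA from the 5′ end, was at 36.2, 33.9 and 36.4 FPKM in Ctrl and 43.2, 42.7 and 41.0 FPKM in cKO. Its log2 fold change was 0.25 ± 0.10 (unadjusted p = 0.0456, adjusted p = 0.978, limma). All cKO libraries were above all Ctrl libraries. Of 17 known lncRNA hosts tested, 0 passed the unadjusted limit (limma), with a median log2 fold change of -0.15.

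The genes at the edge of the choice had nearly the same reads. The last 5 inside, *Gm22615*, *Snord65*, *Gm25117*, *Gm25612* and *Gm23803*, had 3.17 to 3.33 mean reads. The first 5 outside, *Gm23706*, *Gm22192*, *Snora78*, *Gm23172* and *Snora21*, had 2.67 to 3 mean reads. *Gm25117*, the gene with the smallest unadjusted p, ranked 98 of the 100.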

How the data were processed

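RNA of 3 Ctrl and 3 cKO ovary samples was selected with poly-T beads and sequenced in pairs of 150 bases. The authors aligned the reads to GRCm38 (mm10) with HISAT2 2.0.5, counted them on genes with featureCounts and deposited the result as FPKM. The annotation release, the use of strand and the treatment of reads on 2 genes or with multiple matches are not stated in the paper or the labels. Groups and replicate numbers came from the labels.

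Whole reads were recovered from FPKM and gene length (tolerance 0.05 of a read). limma 3.58.1 (R 4.3.3) was run with an intensity trend on log2(FPKM + 1) of genes with a mean of at least 0.5 FPKM, two-sided, and was tested on simulated data. Hosts, exons and sequences are those of GENCODE M21. Copies were found with blastn 2.17.0 (at least 95% identity over 90% of the length). H/ACA genes without a description had to be at least 110 bases long. Python 3.11.15 with pandas 2.3.3, scipy 1.17.1 and matplotlib 3.10.9 made the other values.

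The members and gene lists were chosen with earlier results of these data known. Named are the 10 best-measured members, those past the unadjusted limit or with groups that do not overlap, the 5 widest ranges, ranks 96 to 105, the hosts of these, core snoRNA proteins, listed genes past the limit, well-known snoRNAs and *Srsf1*. Other named members were chosen after their values were seen. Alternatives were other pseudocounts, minimums, scalings and models, the replicate number as a block, and each library left out.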

Additional observations from a re-analysis of the deposited data

How the results depend on the processing

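*Srsf1* was past the unadjusted limit in all alternatives. The 100 snoRNA genes gave 4 calls in the main fit and 0 with a minimum mean of 10 reads, which tests 31 of them and whose median log2 fold change was -0.098 against 0.08. The snoRNA protein and processing genes gave 3 calls in the main fit and 0 when libraries were scaled by snoRNA reads. The host genes gave 2 calls in the main fit, 1 with no minimum and 1 with scaling by snoRNA reads. Of all genes, 4.43% passed in the main fit and 4.77% with the minimum of 10 reads. The share was 3.57% with scaling by snoRNA reads and 3.94% with no minimum. It ran from 2.12% to 14.5% with 1 library left out. With 1 library left out, the snoRNA genes gave 4 to 9 calls with medians of 0.04 to 0.16, the protein genes 0 to 7 and the hosts 1 to 6. None of these genes passed the adjusted limit under any alternative, where the smallest adjusted p of a snoRNA gene was between 0.171 and 1.000.

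Same-numbered Ctrl and cKO libraries deviated from their group means with correlations of -0.389, -0.030 and 0.117, so the numbers were not taken as pairs. With the replicate number as a block, 6 snoRNA genes and 1 snoRNA protein gene were called, against 3.96% of all genes in the same fit.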

Other observations

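The 2 libraries in which *Gm24598* was read were compared with the other 4 after its values had been seen. Of all genes, 7 had at least 5 reads in both Ctrl replicate 2 and cKO replicate 1 and at most 1 read in the other 4 libraries together. *Gm24598* was one of them, with 59 and 47 reads, and none of the other 6 had more than 8 reads in either library.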
